A study of Mus musculus with 15 samples.

Results

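Described here are genes of ubiquitin conjugation, ubiquitin removal and the proteasome, measured in mouse brain RNA of a line with a mutant allele of the lens crystallin gene Crybb2. Members were the probes whose single gene symbol starts with Psma, Psmb, Psmc, Psmd, Psme, Ube, Usp, Fbxo, Fbxl, Fbxw, Cul or Nedd4, or is Babam2, and that were measured on 4 or more arrays in both dye orientations. These were 73 probes of 67 genes, out of 20205 probes and 9669 named genes in all. The symbols took in 184 probes of 147 genes, of which 39.7% passed the filter on measured arrays, beside 39.9% of all probes. Of the 111 probes left out, 32 had no value on any array. The prefixes also caught Psme3ip1, whose product binds a proteasome activator, and the pseudogene Ube2d-ps. Without probe sequences it could not be checked whether the Ube2d-ps probe also picks up near-identical genes. Babam2 is a scaffold protein and neither a ligase nor a protease.

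Ubiquitin is activated by an E1 enzyme, passed to an E2 conjugating enzyme and attached to a target with the help of an E3 ligase. Ligases of the HECT class, such as Nedd4 and Nedd4l, carry ubiquitin themselves, whereas cullins form scaffolds on which F-box proteins choose the target. Deubiquitinases such as the Usp proteases remove the tag, and the 26S proteasome, made of a 20S core and a 19S cap, degrades tagged proteins. In neurons this system controls the turnover of receptors, channels and synaptic proteins.

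Each of the 15 arrays with 2 colours set total RNA from brains of homozygous O377 mutant mice (5 brains, numbered in the labels) against 1 RNA pool from 4 wild-type mouse brains. Mutant RNA was in Cy5 on 7 arrays and in Cy3 on 8. The sources used here give no age, strain background or brain region. They do not tie arrays to single brains, and they leave unsaid whether the 5 RNAs were mixed. The control is 1 pool, so its own spread is left out, and a p-value here reflects how far arrays differ, possibly for technical reasons. Arrays are numbered in accession order.

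Between 7843 and 10515 probes had a value per array, and 8058 passed the filter. The deposited values are log ratios, taken as log2, with an unstated direction. Each probe therefore gave a dye-switching component, the mean with the mutant in Cy5 minus the mean with the mutant in Cy3, divided by 2, and a shared component, the mean of those 2 means. For ratios of Cy5 over Cy3, the former is the genotype difference, positive where the mutant is higher, and the latter is the dye effect. For ratios of mutant over wild type, the roles are exchanged. Ratios hold no expression level, so the brain label could be checked only by which markers had values. Of 9 neuronal markers 5 had a tested probe, of 7 astrocyte markers 2, of 8 microglial markers 2 and of 6 choroid plexus markers 0, of which 3 were on the array. Of 7 oligodendrocyte markers 1 had a tested probe, and of 6 endothelial markers 1. Of 5 skeletal muscle markers 3 had a tested probe, of 5 pituitary markers 3, of 5 lens markers 1 and of 4 erythrocyte markers 1. Such counts therefore do not tell brain from other tissues. Of the tested marker probes of all 10 cell types and tissues, 1 passed the threshold, the neuronal surface gene Thy1 (dye-switching component -0.53, limma adjusted p = 0.0276). In that component the other tested neuronal markers stood at 0.09 (Map2), 0.06 (Eno2), 0.01 (Rbfox3) and -0.04 (Stmn2). The part of Thy1 in the results was not tested. Leaving out any one of arrays 1, 2, 3, 4, 9, 10, 11 or 12 left Thy1 short of the threshold, with a highest limma adjusted p of 0.0649.

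In the dye-switching component, 2 of the 73 member probes passed the threshold of 0.05 for the limma adjusted p, Nedd4l with a positive and Babam2 with a negative coefficient. Over all tested probes 0.645% passed, 0.335% with a positive and 0.31% with a negative coefficient. Both genes had been picked out with this result known, so their calls are a description of the members and no separate evidence. At an unadjusted p under 0.05 there were 8 member probes, or 11%, beside 9.57% of all tested probes. Of the 8, 4 were positive (4.84% of all tested probes were) and 4 negative (4.73%). For the shared component 0 member probes passed in limma, as did 0% of all tested probes, and 7 (9.59%) had an unadjusted p under 0.05 beside 9.49% overall. Of the 7, 4 were positive (4.65% overall) and 3 negative (4.84%). The members' median was 0.03 in the dye-switching component and -0.02 in the shared component, and those of all tested probes were 0.01 and -0.0049. The spread was also like that of the whole array. The median residual SD between arrays was 0.334 for members and 0.337 for all tested probes.

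**Figure D1:**
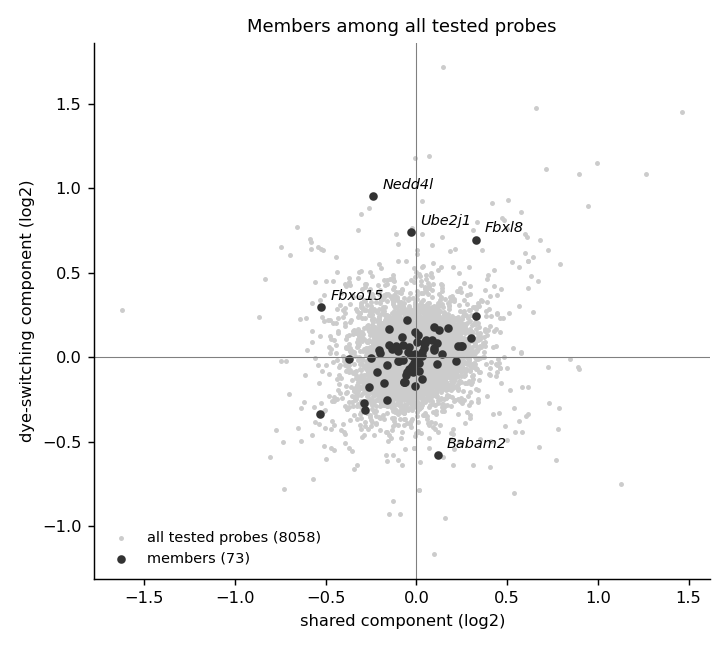
Each point is a probe, with its shared component (log2) on the x axis and its dye-switching component (log2) on the y axis, grey for all 8058 tested probes and black for the 73 members. Nedd4l (0.95) and Babam2 (-0.58) have the highest and the lowest dye-switching component of the members.

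Nedd4l encodes a HECT ligase known for removing sodium channels and other membrane proteins from the cell surface. With the mutant in Cy5, its log ratios were -0.10 on array 5, 1.06 on array 6, 0.70 on array 9 and 1.21 on array 13. With the mutant in Cy3 they were -1.07 on array 7, -1.13 on array 11, -1.05 on array 12, -1.39 on array 14 and -1.32 on array 15. Values in the 2 orientations did not overlap, and array 5 was the 1 array whose sign went against the rest. Of the 73 member probes this was the only one without overlap, beside 0.906% of all tested probes. Overlap is missing more easily with few arrays, and Nedd4l had 9 values where 39 member probes had all 15. The means were 0.72 ± 0.59 (SD, n = 4 arrays) and -1.19 ± 0.16 (SD, n = 5 arrays). The dye-switching component was 0.95 ± 0.13 (SE), a 1.94-fold difference. Its 95% confidence interval was 0.67 to 1.23 on the log2 scale, the limma adjusted p was 0.00455, and it ranked 11 by size among all tested probes. An exact two-sided permutation test of the arrays between orientations gave p = 0.00794, the smallest that 126 arrangements allow. Nedd4l was picked with these values known, so this p is a description and no separate evidence. The shared component was -0.24 (95% confidence interval from -0.52 to 0.04), limma adjusted p = 0.564, and -0.10 without array 5.

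Nedd4l had no value on arrays 1 to 4, 8 and 10, so it passed the filter with the minimum of 4 arrays in one orientation. Arrays in accession order were cut into runs of 4, the last of 3, each with both orientations. The labels do not give these runs. Within the 3 runs that measured Nedd4l, the dye-switching component was 0.77, 0.90 and 1.28, positive in each. The values of 0.90 and 1.28 each rest on 1 array with the mutant in Cy5. That of 0.77 rests on 1 array with the mutant in Cy3, array 7. With 1 value per run, an alternative added once the values were known, it was 0.98 and the limma adjusted p was 0.203, which missed the threshold.

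Its closest relative Nedd4, the ligase after which the family is named, was measured on every array and showed much smaller values. They ran from -0.32 through a median of -0.07 to 0.14 with the mutant in Cy5, and from -0.05 through 0.11 to 0.52 with the mutant in Cy3. These ranges overlapped. The dye-switching component of Nedd4 was -0.13 (95% confidence interval from -0.25 to -0.0049), opposite in sign to that of Nedd4l, with a limma adjusted p of 0.506.

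**Figure D2:**
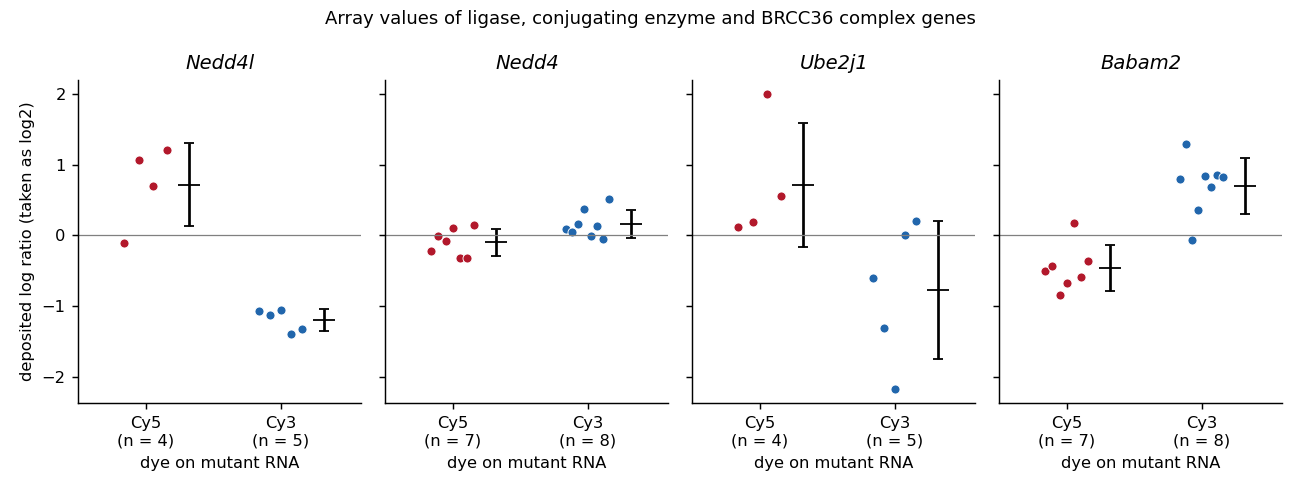
Deposited log ratios (taken as log2, y axis) of Nedd4l, Nedd4, Ube2j1 and Babam2 on each array, red with mutant RNA in Cy5 and blue with mutant RNA in Cy3, with the mean and SD as black marks and n as the number of arrays with a value. The 5 blue Nedd4l points lie at or below -1.05 and the red ones at or above -0.10, whereas the Nedd4 points overlap around 0.

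Babam2 encodes a subunit of the complexes around the deubiquitinase Brcc3, one of which acts with Brca1 in DNA repair and the other on interferon receptors. With the mutant in Cy5, its log ratios ran from -0.84 through a median of -0.50 to 0.17 on 7 arrays. With the mutant in Cy3, they ran from -0.06 through 0.81 to 1.29 on 8 arrays. The values met only at array 9 (0.17), the highest in Cy5, and array 7 (-0.06), the lowest in Cy3, so 13 of 15 arrays lay on the side of 0 shared by most of their orientation. The means were -0.46 ± 0.32 (SD, n = 7 arrays) and 0.70 ± 0.40 (SD, n = 8 arrays). The dye-switching component was -0.58 ± 0.09 (SE), a 1.49-fold difference. Its 95% confidence interval was -0.77 to -0.38 and the limma adjusted p was 0.0031. The exact two-sided permutation test over 6435 arrangements gave p = 0.000622, likewise a description of a gene picked with its values known. In the 4 runs of arrays the dye-switching component was -0.76, -0.45, -0.49 and -0.60, negative in each, and with 1 value per run it was -0.57 at a limma adjusted p of 0.203. Of 57 member probes with values in all 4 runs, 7 kept 1 sign in every run (12.3%), beside 15.3% of all tested probes so measured. Its shared component was 0.12 (95% confidence interval from -0.08 to 0.31), limma adjusted p = 0.683.

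Of 10 genes listed as partners of Babam2 in these complexes, 5 were on the array and Brcc3 alone had a tested probe. Brcc3, the catalytic subunit, stood at 0.03 in the dye-switching component (limma adjusted p = 0.917) and at 0.03 in the shared component (adjusted p = 0.919), and both signs turned when arrays were weighted. For Nedd4l, 6 of 26 regulators and substrates had a tested probe, among them its adaptor Ndfip1 and the potassium channel gene Kcnq3. Of the 6 probes, 0 passed or had an unadjusted limma p under 0.05 in either component, and their median was -0.01 in the dye-switching component and -0.10 in the shared component.

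Among the Ube genes, which hold the E2 enzymes and a few ligases, 0 of 18 probes of 14 genes passed. An unadjusted limma p under 0.05 was reached by 2 in the dye-switching component (11.1%), beside 9.57% of all tested probes. The median was 0.04 in that component, with 13 probes above 0 beside 52.8% of all tested probes, and -0.03 in the shared component. Ube2j1, an E2 enzyme of the endoplasmic reticulum that serves the degradation of misfolded proteins, had the largest coefficient of all members after Nedd4l. Its values were 0.12, 0.19, 1.99 and 0.55 with the mutant in Cy5, and -0.60, -1.31, -2.16, 0.01 and 0.21 with the mutant in Cy3. The orientations overlapped by the values of arrays 1, 5 and 12. The component was 0.74 ± 0.26 (SE), unadjusted p = 0.0175, and the limma adjusted p of 0.39 missed the threshold. The lowest Ube coefficient was that of Ube4b, a ligase that lengthens ubiquitin chains, at -0.25 (95% confidence interval from -0.67 to 0.17), or -0.14 without array 3, -0.16 without array 6 and -0.37 without array 7.

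Genes with several probes show how far probes of one gene can differ. Ube2b, an E2 enzyme of DNA damage tolerance, stood at -0.14 ± 0.05 on the first probe (unadjusted limma p = 0.0104, adjusted p = 0.324), at 0.07 ± 0.06 on the second and at 0.17 ± 0.16 (SE) on the last. On the first probe the values ran from -0.44 to -0.02 with the mutant in Cy5 and from -0.11 to 0.29 with the mutant in Cy3. The mean of the 3 probes was 0.02, so no direction held for the gene. Both probes of Ube2z, an E2 enzyme that takes ubiquitin from Uba6, stood at 0.08 in the dye-switching component. Those of Ube2l3, the E2 partner of parkin, stood at 0.01 and 0.18. In the shared component Ube2d-ps was lowest at -0.22 (-0.14 without array 7) and Ube2b highest at 0.17 on its last probe, and neither passed in limma (adjusted p of 0.577 and 0.731).

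Among the substrate adaptors of cullin ligases, 0 of 18 F-box probes passed. An unadjusted limma p under 0.05 was reached by 1 (5.56%) in the dye-switching and 2 (11.1%) in the shared component. Over all tested probes 9.57% and 9.49% did. Fbxl8, whose product carries leucine-rich repeats, had a dye-switching component of 0.70 ± 0.30 (SE), unadjusted p = 0.0449 and limma adjusted p = 0.508. It was measured on 8 arrays only. Its values with the mutant in Cy5 were 2.34, 1.17, 1.36 and -0.78, and with the mutant in Cy3 -0.84, 0.25, 0.16 and -1.06, so the low value of array 13 put it among the other orientation. Fbxo21 had the lowest F-box coefficient at -0.31, with 1 value of -3.35 on array 2, and without that array it stood at -0.08. Fbxl19 stood at 0.09. Fbxw8, an adaptor of Cul7, was the highest of the Fbxw genes at 0.08, and Fbxw18 was the lowest at -0.18, or 0.0083 without array 5.

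Fbxw17 had the smallest adjusted p of all members in the shared component. Its values ran from -0.11 through 0.32 to 0.55 with the mutant in Cy5 and from -0.01 through 0.17 to 0.46 with the mutant in Cy3, and 13 of 15 arrays lay above 0. The coefficient was 0.24 ± 0.06 (SE), unadjusted p = 0.000714 and limma adjusted p = 0.325. It was positive in all 4 runs, as 10 of 57 member probes kept 1 sign there (17.5%), beside 17.1% of all tested probes. Fbxo15 lay below 0 on 14 of 15 arrays, with a shared coefficient of -0.52 ± 0.25 and a limma adjusted p of 0.524. Array 7 had a value of -4.33, and without it the coefficient was -0.27. Fbxo30 was the highest of the Fbxo genes at 0.11.

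Of the cullins, the scaffolds of these ligases, Cul1, Cul5 and Cul7 were measured and 0 passed. In the shared component Cul1, the scaffold of SCF ligases, stood at 0.25 ± 0.10 (SE, limma adjusted p = 0.472) and Cul7 at 0.30 ± 0.12 (adjusted p = 0.491), with 10 of 13 and 8 of 11 arrays above 0. Cul5 stood at -0.18, with its 95% confidence interval from -0.42 to 0.06, and at -0.09 without array 5. In the dye-switching component the cullins ran from -0.15 for Cul5 to 0.12 for Cul7.

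Of the 12 Usp protease probes 0 passed in limma in either component. An unadjusted p under 0.05 was reached by 1 (8.33%) in the dye-switching and 2 (16.7%) in the shared component, beside 9.57% and 9.49% of all tested probes. In the dye-switching component they ran from -0.27 for Usp54 to 0.15 for Usp38, with a median of -0.02. Single arrays moved both ends: Usp54 stood at -0.12 without array 2, -0.17 without array 5 and -0.52 without array 9, and Usp38 at 0.09 without array 9. Usp38 had an unadjusted limma p of 0.0498 and an adjusted p of 0.521. Its high values lay on array 9 (0.92), array 13 (0.24) and array 1 (0.19), all with the mutant in Cy5, while the other 4 of that orientation lay between -0.13 and -0.06, within the range of the opposite orientation, from -0.31 to -0.0092. In the shared component all 12 Usp coefficients were negative, beside 51.6% of all tested probes, with a median of -0.05 and a range from -0.29 for Usp54 to -0.0059 for Usp12. That of Usp54 was -0.14 without array 2, -0.18 without array 5 and -0.53 without array 9. This count was chosen after the values were seen and has no test. The coefficient of Usp12 turned positive without arrays 9 and 10 (0.03) and with 1 value per run (0.04). Usp7, which stabilises Mdm2 and p53, was at -0.21 ± 0.07 (SE, limma adjusted p = 0.396). Its values ran from -0.35 through -0.25 to 0.30 with the mutant in Cy5 and from -0.54 through -0.29 to 0.22 with the mutant in Cy3, and 12 of 15 lay below 0. Usp24 was at -0.16 ± 0.08, unadjusted limma p = 0.0457.

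**Figure D3:**
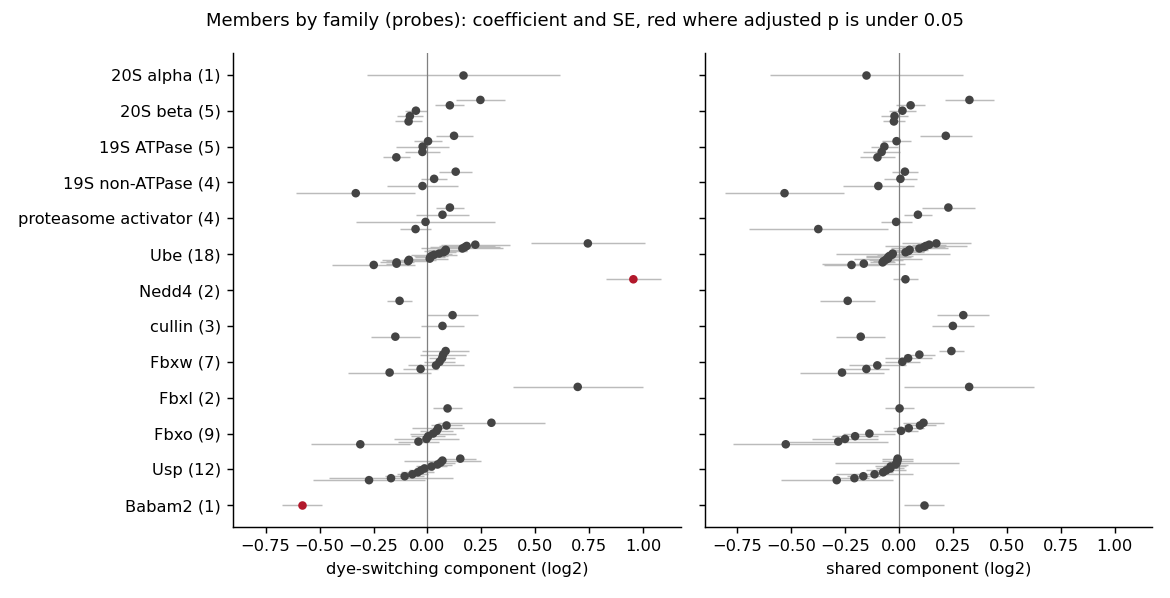
Dye-switching (left) and shared (right) component of every member probe (log2, x axis) with its SE as a grey bar, by family with the number of probes in brackets (y axis). Red marks an adjusted p under 0.05, reached by Nedd4l and Babam2 on the left alone, and all 12 Usp points on the right lie below 0.

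Genes with Psma, Psmb, Psmc or Psmd symbols were counted as subunit genes of the 20S core and the 19S cap. Among them was Psmd5, whose product helps to assemble the cap. Of the 15 probes of these 13 genes, 0 passed in either component. In each, 1 (6.67%) had an unadjusted limma p under 0.05, beside 9.57% and 9.49% of all tested probes. Their median was -0.02 in both components. By array, the median of these probes ran from -0.10 to 0.21 with the mutant in Cy5 and from -0.09 to 0.11 with the mutant in Cy3, so the orientations overlapped. Psmc3, an ATPase of the 19S base, had the smallest p in the dye-switching component. Its values ran from -0.53 through -0.21 to 0.22 with the mutant in Cy5 and from -0.24 through 0.09 to 0.31 with the mutant in Cy3. The coefficient was -0.14 ± 0.06 (SE), unadjusted p = 0.0308 and limma adjusted p = 0.463, and it was negative in 4 of 4 runs.

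For the catalytic core subunit Psmb6 the 95% confidence interval of the dye-switching component ran from -0.16 to 0.05, and for Psmb7 from -0.22 to 0.05, so a fold as large as that of Nedd4l or Babam2 lay outside both. Intervals were much wider for Psma1, an alpha subunit of the core, from -0.79 to 1.12, since its values ran from -4.70 to 2.51 over 13 arrays. The 2 probes of Psmd5, which helps to assemble the cap, gave different values. One stood at -0.33 in the dye-switching and -0.53 in the shared component, with a value of -3.42 on array 2, and the other at 0.03 in both. Without array 2 the first stood at -0.08 and -0.27. The probes of the ATPase gene Psmc1 stood at 0.12 and 0.0026, Psmd4, a ubiquitin receptor, at 0.13, and in the shared component Psmc4 stood at -0.10 and Psmc6 at 0.22, or 0.13 without array 9.

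Subunits of the immunoproteasome, which replace core subunits under interferon, and the interferon-induced PA28 activator were represented by Psmb8, Psmb10, Psme1 and Psme2. Psmb10 stood at 0.25 ± 0.11 (SE) in the dye-switching component (limma adjusted p = 0.527) and at 0.33 ± 0.11 in the shared component (unadjusted p = 0.0133, adjusted p = 0.424). Its values were 0.31, 0.40, 0.31, 1.29 and 0.55 with the mutant in Cy5, all above 0, and ran from -0.40 through 0.14 to 0.75 with the mutant in Cy3. Psmb8 stood at 0.10 in the dye-switching and at 0.05 in the shared component. In the dye-switching component Psme1 stood at 0.07 and Psme2 at -0.0090. In the shared component Psme1 stood at 0.23 and Psme2 at -0.37, the latter with 1 value of -2.81 on array 9. Without array 9 Psme2 stood at -0.13 and without array 4 at -0.15, and without array 10 Psme1 stood at 0.14. The dye-switching component of Psmb10 was 0.16 without array 9. Psme4, the activator PA200, stood at -0.06 in the dye-switching component and Psme3ip1 at 0.10. Of these 0 passed in limma, and Psmb10 alone, in its shared component, reached an unadjusted p under 0.05.

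**Figure D4:**
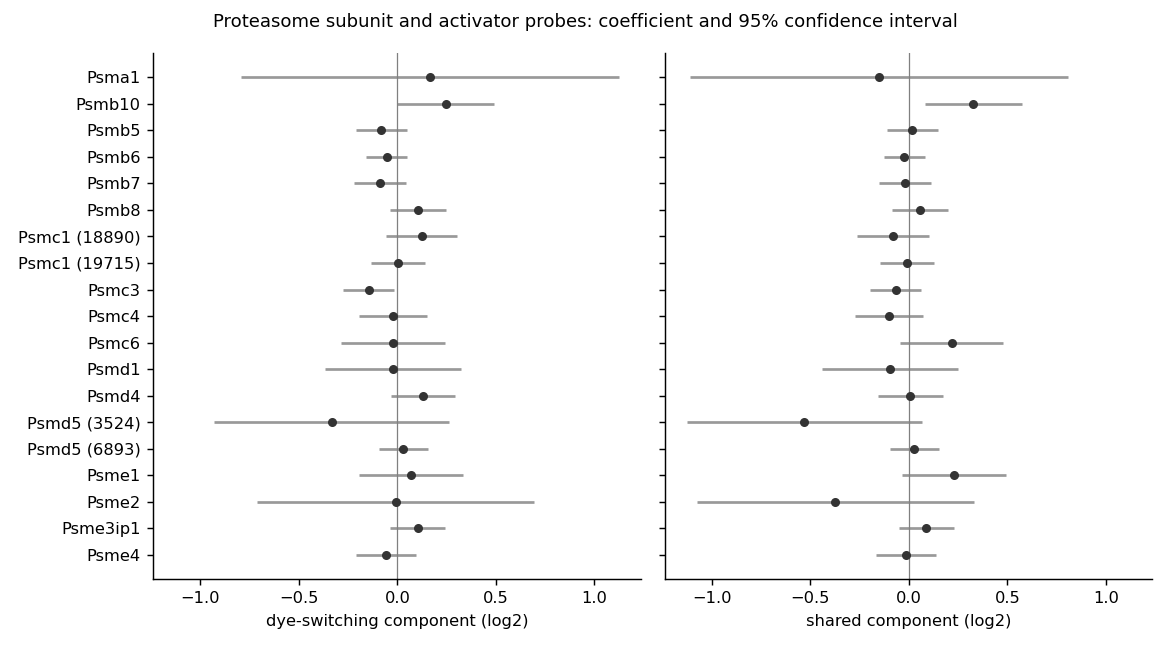
Dye-switching (left) and shared (right) component (log2, x axis) of each proteasome subunit and activator probe (y axis, with the probe number in brackets where a gene has 2), shown with its 95% confidence interval. Most intervals include 0, the exceptions being Psmc3 on the left and Psmb10 on the right, and those of Psma1, Psme2 and 1 Psmd5 probe are the widest.

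Proteasome genes are known to be induced together by the factors Nfe2l1 and Nfe2l2 through antioxidant response elements, so the RefSeq promoters (GRCm38.p6, 250 bases before to 50 after the start) were searched for the core TGACNNNGC on both strands. Of 67 member genes 56 had a promoter in the table, Nedd4l not among them. Of the 11 windows of subunit genes 3 held the core (27.3%), beside 12.4% of all 32851 windows and 22.1% of the 68 member windows. The genes were Psmb5, Psmb6 and Psmc6. The single Babam2 window held it too. These counts have no test, and a match is a run of letters and not a measured site. The 250 bases before the start are shown for the core subunits whose match lies close to the start and for Babam2, a member past the threshold, 5′ to 3′ on the gene's strand, with the match in capitals.
Psmb5, chr14:54617996-54618245, minus strand: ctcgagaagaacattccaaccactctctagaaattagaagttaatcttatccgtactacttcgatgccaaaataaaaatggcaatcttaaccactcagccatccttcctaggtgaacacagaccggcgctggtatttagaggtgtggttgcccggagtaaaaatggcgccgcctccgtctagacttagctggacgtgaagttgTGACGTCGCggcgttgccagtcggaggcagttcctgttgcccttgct
Psmb6, chr11:70525107-70525356, plus strand: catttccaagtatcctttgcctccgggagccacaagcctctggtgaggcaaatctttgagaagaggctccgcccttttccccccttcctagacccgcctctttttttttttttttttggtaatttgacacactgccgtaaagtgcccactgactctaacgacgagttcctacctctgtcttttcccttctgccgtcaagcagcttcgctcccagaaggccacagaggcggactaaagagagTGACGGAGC
Babam2, chr5:31697800-31698049, plus strand: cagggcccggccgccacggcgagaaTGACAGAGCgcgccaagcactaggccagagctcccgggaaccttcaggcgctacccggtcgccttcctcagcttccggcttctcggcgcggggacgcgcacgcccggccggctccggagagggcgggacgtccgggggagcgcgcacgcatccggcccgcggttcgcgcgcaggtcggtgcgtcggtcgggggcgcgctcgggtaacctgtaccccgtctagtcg
Counted from the start, the match begins at -47 in Psmb5, at -9 in Psmb6 and at -225 in Babam2. In the dye-switching component Psmb5 stood at -0.08, Psmb6 at -0.05 and Babam2 at -0.58. For the heat shock core GAANNTTC, 1 of 11 subunit windows matched, that of Psmb5, beside 7.86% of all windows, and the Babam2 window matched. For CCAAT 3 of 11 matched (27.3%), beside 37.4% of all windows.

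The wider pathway was followed with 10 gene lists, which together had 79 tested probes. In limma 0 passed in either component, and 9 in the dye-switching and 7 in the shared component had an unadjusted p under 0.05. Over all tested probes 9.57% and 9.49% did. Ubqln4, which shuttles ubiquitinated proteins to the proteasome, came closest, at -0.27 ± 0.06 (SE) in the dye-switching component with an adjusted p of 0.0881. Its limma adjusted p was 0.0444 without array 9, 0.0351 without array 10 and 0.00437 without both, which had the widest interquartile ranges of all arrays (0.731 and 0.892, against 0.386 to 0.578 on the others). Leaving out any other single array gave 0.109 to 0.18, and 1 value per run gave 0.718. The part of array spread in this was not tested. It also stood at -0.19 in the shared component, unadjusted p = 0.0105. Uba6, an E1 enzyme, was at 0.35 ± 0.10 with a limma adjusted p of 0.18. In the shared component the ligases Trim37 and Marchf2 had the smallest p and stood at 0.24 and -0.43, with a limma adjusted p of 0.386 for both. By list, dye-switching medians ran from -0.09 for 10 probes of the NEDD8, SUMO and COP9 list to 0.16 for 2 probes of ubiquitin and E1 genes, and the 4 probes for regulators of proteasome genes had a median of 0.06.

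The filter on measured arrays left out some probes narrowly, given here by their means with the mutant in Cy5 and in Cy3. Among probes of the same symbols that missed it by 1 array, Usp16 stood at -2.46 and 0.26, a further Ube2z probe at -0.19 and -0.87, and Fbxl7 at 0.21 and -0.07. Among those that just passed, Nedd4l, Ube2j1 and Fbxl8 had the largest differences and Psme2 the smallest, at -0.38 and -0.36.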

How the data were processed

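The authors deposited log2 ratios (base, direction and centring: not given in the sources used here; base 2 was taken from the largest values), 1 per probe and array, with array medians between -0.00618 and 0.0165. The sources used here do not say why other spots have no value. Symbols came from the platform annotation, updated through gene identifiers to GRCm38.p6; 11723 probes had 1 symbol, 806 several and 7676 none. The values entered a linear model with dye orientation as its term (limma 3.58.1 under R 4.3.3), over all 8058 probes measured on 4 or more arrays in both orientations, with Benjamini-Hochberg adjustment over all of them and a threshold of 0.05. The model was also run on simulated data, made from its residuals with independent random signs. Such data hold no dependence between arrays, so the run cannot show that p-values hold for brains set against 1 pool. Members and lists were chosen with earlier results of these data known. Named were Nedd4l, Babam2, members past the threshold or with an unadjusted p under 0.05, the highest and lowest of each family, and genes with several probes, and of the pathway lists the 2 smallest p per component. Others were named after their values were seen. Figures were drawn with matplotlib 3.10.9. Alternatives changed centring, scaling, filter, weights, variance model, regression, limits, averaging and arrays, and runs of 4 arrays as a block or as 1 value each.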

Additional observations from a re-analysis of the deposited data

Results flagged for a closer look

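Within each dye orientation, the values of the 45 named member probes were checked for an array far from the others, in 90 sets of 4 to 8 arrays. There were 11 such sets (12.2%), and 4 of them lay on array 9. Chance gives about 1 in 20 for samples chosen without regard to their values, which these probes were not, since an extreme coefficient was among the reasons for naming them. With the mutant in Cy5, array 9 stood apart for Psmb10 (1.29, next 0.555), Cul7 (1.07, next 0.461), Psme2 (-2.81, next -0.431) and Usp38 (0.923, next 0.239). Array 5 did for Cul5 (-1.40, next -0.332) and Fbxw18 (-1.91, next -0.261), array 2 for Fbxo21 (-3.35, next -0.78) and array 10 for 1 Ube2z probe (1.01, next 0.229). With the mutant in Cy3, array 4 stood apart for Psmc1 (-0.834, next -0.256), array 7 for Fbxo15 (-4.33, next -0.627) and array 15 for the other Ube2z probe (-0.311, next -0.0333). Nedd4l and Babam2 had no such value.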

How the results depend on the processing

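The 2 member calls in the dye-switching component kept direction and side of the threshold under 9 of 12 alternatives and without each array in turn, with values from 0.87 to 1.09 for Nedd4l and -0.64 to -0.54 for Babam2. Babam2 alone (1 call) passed with at least 6 arrays per orientation and without arrays 9 and 10, where Nedd4l has too few arrays for the filter. Fits without a single array used a looser filter, which let a tested probe fall to 3 arrays in an orientation. Nedd4l has no value on array 10, so its fit without array 9 used the arrays that remain without both. With 1 value per run of 4 arrays, which leaves fewer values, 2 of 7824 probes passed in all, against 52 of 8058, and 0 members did. Nedd4l (0.98) and Babam2 (-0.57) then had an adjusted p of 0.203. Robust regression called 3 members in the shared component, and 2 pathway genes in each component. Array weights, and leaving out arrays 9 and 10, called 1 pathway gene in the dye-switching component, and leaving out single arrays 0 to 1. Over all probes, dye-switching calls numbered 74 with array weights, 204 with robust regression and 36 to 48 without single arrays, and shared calls 107 with robust regression. For calls not explained by fewer arrays, the cause was not tested.
The array numbers are accession order and pair nothing. Each ratio already sets both RNAs of its array against each other. No paired analysis was possible because the labels give the groups no shared replicate numbers.

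The values listed next were past the threshold under no setting, and their signs turned. Scaled arrays gave -0.0050 for the second Psmc1 probe and -0.0028 for the first Ube2l3 probe (dye-switching) and -0.0019 for Brcc3 (shared). Array weights gave -0.011 for that Psmc1 probe, -0.048 for that Ube2l3 probe and -0.017 for Brcc3 (dye-switching), and -0.030 for Brcc3 (shared). Averaged probes gave -0.14 (dye-switching) and -0.20 (shared) for Psmd5, 0.018 and -0.0079 likewise for Ube2b, and -0.011 for Ube2l3 (shared). Without arrays 9 and 10, dye-switching values were -0.092 for Psma1, -0.035 for Ube2l3 and -0.020 for Brcc3, and shared values -0.025 for Ube2z, 0.029 for Usp12 and -0.025 for Brcc3. Robust regression gave 0.054 for Psma1 and -0.0033 for Brcc3, and limits at 2 gave 0.0048 for Psma1 (all shared). With 1 value per run, shared values were 0.055 for Psma1 and 0.035 for Usp12, and the dye-switching value of Psmc1 was -0.0018. Without single arrays, dye-switching values ran from -0.034 to 0.042 for Psmc1, -0.0079 to 0.059 for Psmd5, -0.20 to 0.40 for Psma1, -0.26 to 0.0083 for Fbxw18, -0.011 to 0.045 for Ube2l3, -0.0072 to 0.13 for Ube2z and -0.013 to 0.061 for Brcc3. Shared values ran from -0.047 to 0.028 for Psmc1, -0.011 to 0.056 for Psmd5, -0.39 to 0.21 for Psma1, -0.023 to 0.037 for Fbxl19, -0.056 to 0.00022 and -0.0085 to 0.17 for the Ube2l3 probes, -0.023 to 0.088 for Ube2z, -0.061 to 0.033 for Usp12 and -0.018 to 0.055 for Brcc3.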
